A study of Homo sapiens with 2 samples.

Results

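The E2F proteins and their DP partners are the transcription factors that turn on the genes of DNA replication when a cell leaves G1 phase. An E2F binds DNA together with TFDP1 or TFDP2, except for the atypical E2F7 and E2F8, which bind without a DP protein. E2F1, E2F2 and E2F3 act as activators and are held in check by the pocket protein RB1. E2F4 and E2F5 recruit the pocket proteins RBL1 and RBL2 to keep the same genes silent in resting cells. E2F6 represses with a polycomb complex instead, and E2F7 and E2F8 switch E2F target genes off again later in the cycle. All 10 genes, E2F1 to E2F8, TFDP1 and TFDP2, were taken by name from the 20037 protein-coding genes that RefSeq places on chromosomes 1 to 22, X and Y of GRCh38.p14.

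Peaks near these genes were read from CUT & Tag for Flag-tagged HOXA5. In this method an antibody brings a transposase to a protein on DNA and the DNA cut there is sequenced. Whether a given peak marks HOXA5 itself was not tested. The cells were TFK-1, an established line from a cancer of the bile duct outside the liver. The LV-HOXA5 cells had been made with a lentivirus for Flag-HOXA5 and the LV-HOXA5-NC cells with a negative control lentivirus, and both were stable lines selected with puromycin and probed with the same anti-Flag antibody. Each condition had 1 library, so nothing that differs between them could be checked against replicates. The LV-HOXA5 library held 15778555 fragments and 8043 peaks, and the LV-HOXA5-NC library 1948734 fragments, or 12.4% of that number, and 635 peaks. Peak lists do not show whether a cell line or a tag is what its label says, and neither was checked here.

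For each peak, the pileup is the number of fragments over its highest point, the summit. The fold enrichment sets the pileup against the background around the peak in its own library. The q-value is the p-value of that comparison corrected by the peak caller for many regions. A gene was counted as having a peak when a deposited peak lay inside it or within 3 kb of an end. The RefSeq table gave no exons, so positions inside a gene are not split into exon and intron.

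In the LV-HOXA5 list, 3 of the 10 genes had a peak, namely E2F3, E2F8 and TFDP2, each with 1. Among all protein-coding genes, 4143 of 20037 (20.7%) had one by the same rule, so 3 of 10 is close to the background and is not a result about the family. Long genes held peaks more often. The share was 11.3% of genes under 10 kb (exact 95% binomial interval 10.5 to 12.2%), the class of E2F4. It was 18.2% of those of 10 to 30 kb, 24.6% of those of 30 to 100 kb and 34.2% of those of 100 kb or more (32.6 to 35.9%), the class of TFDP2. E2F8 was the 1 of 4 members with a peak in the class of 10 to 30 kb, beside E2F1, E2F2 and E2F6. E2F3 was the 1 of 4 in the class of 30 to 100 kb, beside E2F5, E2F7 and TFDP1.

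By role, 1 of the 3 activators (E2F3), none of E2F4, E2F5 and E2F6, 1 of the 2 atypical E2Fs (E2F8) and 1 of the 2 DP partners (TFDP2) had an LV-HOXA5 peak. With 1 to 3 genes in a class these counts describe the genes and were not tested against each other. The study also measured the transcripts of E2F2, E2F7 and E2F8 by RT-qPCR in cells with HOXA5, and those measurements were not analysed here. Of these genes, E2F8 had a peak and E2F2 and E2F7 had none.

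The peak of E2F3 lay at the start of the gene. E2F3 drives entry into S phase. The gene (GRCh38, chromosome 6, 20401879 to 20493714, plus strand) is 91.8 kb long, and its peak (chromosome 6, 20401470 to 20401729, 260 bp) ended 150 bp before it, with the summit 319 bp upstream of the start. The pileup was 19 fragments (exact 95% Poisson interval 11.4 to 29.7), the fold enrichment 6.04 and the −log10 q-value 8.24. The local background recovered from these values was 2.31 fragments. This was the strongest of the members' peaks, at rank 1762 of 8043 by fold enrichment and above 78.1% of the list. The peak also lay inside LOC124901482, a RefSeq gene model that overlaps the start of E2F3, so it cannot be assigned to one gene of the pair.

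The E2F3 promoter is shown because the peak reached into it. The sequence is from RefSeq for GRCh38.p14, plus strand, chr6:20401629-20401928, which runs from 250 bases before the start to 50 after it. Capitals mark the 101 bases inside the LV-HOXA5 peak, while the other 159 bases of the peak lie further upstream.

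E2F3: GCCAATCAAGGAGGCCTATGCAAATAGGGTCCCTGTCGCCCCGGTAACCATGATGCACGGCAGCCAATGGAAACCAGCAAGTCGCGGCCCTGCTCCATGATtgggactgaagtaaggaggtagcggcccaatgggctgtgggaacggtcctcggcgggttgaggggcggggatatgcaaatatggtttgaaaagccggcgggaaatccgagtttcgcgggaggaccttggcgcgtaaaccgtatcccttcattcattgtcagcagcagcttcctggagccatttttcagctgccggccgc

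Both strands of this window were searched for a set of short motifs. The letters TAAT, the core that homeodomain proteins such as HOXA5 commonly bind, were not in the window, whereas 50.2% of the 35116 RefSeq promoters of the same length held them. CCAAT, the box bound by NF-Y, occurred 4 times, 2 of them within the peak, and 34.6% of promoters held at least 1. The octamer ATGCAAAT, a site of POU factors, was searched for only after the sequence had been read. It occurred 2 times, once within the peak, and 1.77% of promoters held it. The E-box CACGTG, bound by MYC with MAX, was not in this window and was in 7.26% of all promoters. It did occur in the second RefSeq promoter of E2F3, 80 bp before that start, which was the only E-box among the 11 windows of the members. These are matches of letters and not shown to be bound sites, and the summit itself lies outside the window.

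The E2F letters of the same promoter lay outside the peak, nearer to the start. Binding sites for E2F were searched as TTTCCCGC, TTTGGCGC, TTTCGCGC and TTTGCCGC, on both strands, and 3.31% of the promoters held at least 1. The shorter TTTCGCG was added after the promoters had been read, overlaps the third of these, and was in 1.32%. All 3 activator genes had both, close to the start, and the stretches are shown to compare E2F3, which had a peak, with E2F1 and E2F2, which had none. All are from RefSeq for GRCh38.p14, for E2F1 chr20:33686373-33686432 on the minus strand, for E2F2 chr1:23531241-23531300 on the minus strand and for E2F3 chr6:20401816-20401875 on the plus strand. Capitals mark the E2F letters.

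E2F1: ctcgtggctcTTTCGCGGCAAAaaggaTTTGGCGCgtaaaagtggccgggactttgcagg
E2F2: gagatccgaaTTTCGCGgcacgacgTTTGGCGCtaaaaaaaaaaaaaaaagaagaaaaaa
E2F3: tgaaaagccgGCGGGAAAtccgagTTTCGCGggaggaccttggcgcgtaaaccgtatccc

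In E2F1 the letters began 37, 33 and 20 bp before the start, in E2F2 57 and 42 bp and in E2F3 53 and 39 bp. Of the 8 members with a promoter in the RefSeq table, TFDP1 was the only other one with an E2F site, 120 bp before its start. The members that did not match were E2F5 and E2F8. The windows of E2F4, E2F6 and E2F7 and the 3 windows of TFDP2 had no E2F site, and the second window of E2F3 had none either. E2F1, E2F3, E2F7 and TFDP2 had CCAAT in at least 1 window, and TAAT was found only in the 2 inner windows of TFDP2. The first window of E2F3 was the only 1 of the 11 windows with bases in an LV-HOXA5 peak. Counted from the starts alone, E2F3 was thus the 1 of 8 members with a peak within 3 kb of a start, against 2424 of the 15843 protein-coding genes with a start in that table (15.3%).

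The peak of E2F8 lay inside the gene, near its upper end. E2F8 acts with E2F7 as a repressor and is itself among the genes that E2F proteins control. The gene (GRCh38, chromosome 11, 19224063 to 19241655) is 17.6 kb long. The tables used here give no strand for it, and that the upper end is its start rests on general knowledge that E2F8 is read from the minus strand. The peak (chromosome 11, 19240831 to 19241182, 352 bp) lay 473 bp from that end, with the summit 627 bp from it. The pileup was 13 fragments (exact 95% Poisson interval 6.92 to 22.2), the fold enrichment 4.56, the −log10 q-value 3.97 and the local background 2.07 fragments. It ranked 4670 of 8043 by fold enrichment, above 41.9% of the list. CSRP3-AS1, a long non-coding RNA gene, spans the same position.

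The peak of TFDP2 lay deep in the longest of the genes. TFDP2 forms the dimer that lets an E2F bind DNA. The gene (GRCh38, chromosome 3, 141944428 to 142149544, minus strand) is 205.0 kb long. Its peak (chromosome 3, 142076976 to 142077288, 313 bp) lay 72.3 kb from the start at the upper end and 133.0 kb from the lower end, and 47928 bp separated the summit from the nearest of the 3 RefSeq starts. The pileup was 12 fragments (exact 95% Poisson interval 6.20 to 21.0), the fold enrichment 4.95, the −log10 q-value 4.28 and the local background 1.62 fragments. It ranked 3621 of 8043 by fold enrichment. Of the members' peaks this was the only one that lay far from any gene end, the nearest being that of the pseudogene RPL19P6 at 32883 bp.

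**Figure D1:**
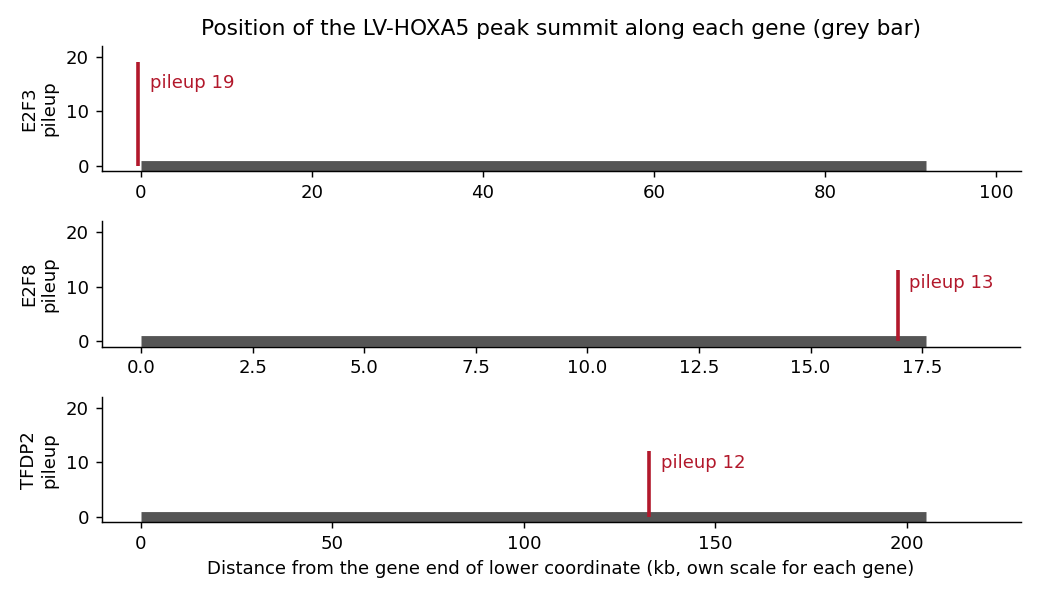
Position of the LV-HOXA5 peak summit (red line, its height is the pileup in fragments) along E2F3, E2F8 and TFDP2, with each gene as a grey bar and the distance in kb from its end of lower coordinate, on a scale of its own for each gene. The summit of E2F3 lies just before the gene with a pileup of 19, that of E2F8 near the upper end with 13 and that of TFDP2 in the gene body with 12.

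Among the members' peaks, the Poisson intervals of the pileups of E2F3, E2F8 and TFDP2 overlapped, and the differences between the pileups were not tested. The order of the peaks also depended on the measure. By fold enrichment and by pileup E2F3 came first, but TFDP2 came before E2F8 by fold enrichment and after it by pileup, where the peaks stood above 58.2% (E2F3), 22.1% (E2F8) and 15.6% (TFDP2) of the list. By −log10 q-value they stood above 70.5%, 30.2% and 35.4%. The 2064 peaks within 3 kb of a protein-coding start had a median pileup of 17 fragments and a median fold enrichment of 4.84, with the middle 50% of folds between 4.18 and 5.72. E2F3 lay above that range and E2F8 within it.

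**Figure D2:**
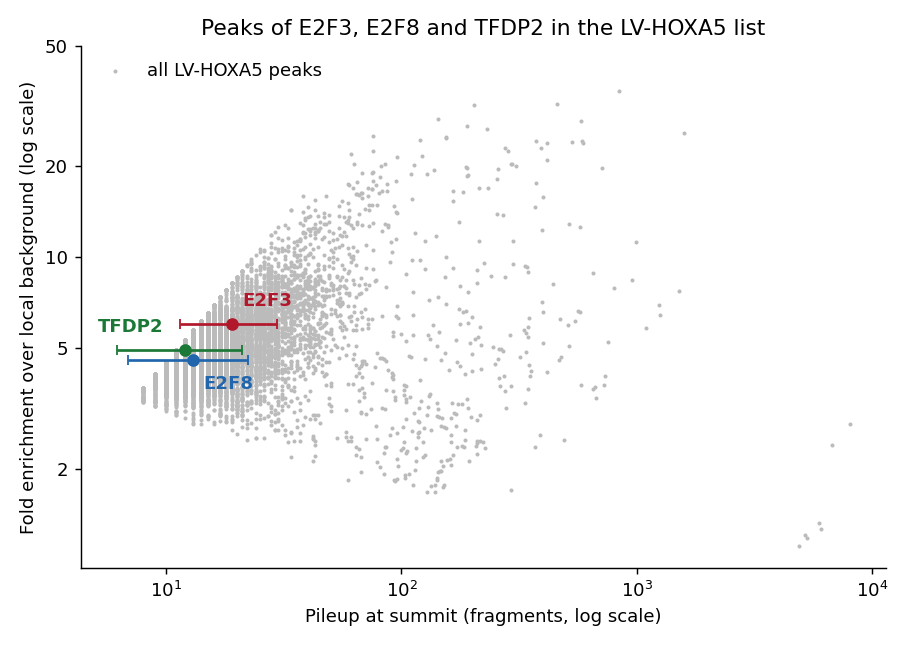
Pileup at the summit (fragments, log scale) against fold enrichment over the local background (log scale) for the 8043 LV-HOXA5 peaks (grey points), with the peaks of E2F3, E2F8 and TFDP2 in colour and bars for their exact 95% Poisson intervals. The coloured points sit in the dense lower left part of the list, at folds of 6.04, 4.56 and 4.95, and their bars overlap.

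The other 7 genes differed widely in how far the nearest LV-HOXA5 peak lay. Just beyond the 3 kb limit were the pocket-protein repressors. E2F5 (chromosome 8, 85177154 to 85214518) had its nearest peak at 5649 bp, and that peak (85220167 to 85220806) covered an end of the neighbouring gene RBIS, with 19 fragments at the summit and a 6.76-fold enrichment. E2F4 (chromosome 16, 67192155 to 67198918) had it at 8118 bp, where the peak (67183599 to 67184037) covered an end of MATCAP1, with 33 fragments at the summit and a 5.84-fold enrichment. Both of these neighbouring peaks thus lay at the end of another gene, and both had a higher pileup and a higher fold than the peaks of E2F8 and TFDP2.

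Further out, the nearest peak of E2F2 (chromosome 1, 23505212 to 23531233) lay 24.9 kb away, 1328 bp from ID3, which encodes an inhibitor of basic helix-loop-helix factors, where the pileup was 27 fragments and the enrichment 4.62-fold. E2F6 (chromosome 2, 11444375 to 11466161) had its nearest peak at 53.9 kb, outside any protein-coding gene, where the pileup was 43 fragments and the enrichment 5.14-fold. For TFDP1 (chromosome 13, 113584688 to 113641473) the distance was 148 kb, to a peak inside ADPRHL1 with a pileup of 26 fragments. The most distant were E2F7 and E2F1. The nearest peak of E2F7 (chromosome 12, 77021251 to 77065569) lay 257 kb away, 80 bp from an end of ZDHHC17, with a pileup of 16 fragments. That of E2F1 (chromosome 20, 33675477 to 33686385) lay 301 kb away inside CDK5RAP1, with a pileup of 19 fragments. E2F1, the best known activator, was thus the member furthest from any LV-HOXA5 peak.

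All protein-coding genes had a median distance to an LV-HOXA5 peak of 77.9 kb (middle 50% between 10.4 and 246 kb). The median of the 10 members was 16.5 kb, and the difference was not tested. Measured from the gene start only, it was 61.7 kb over 8 members, a distance not computed for all protein-coding genes. E2F1 and E2F7 lay beyond that middle range, since 79.0% and 75.9% of protein-coding genes had a closer peak. E2F4, E2F5 and the 3 genes with a peak lay at or under its lower bound, and E2F2, E2F6 and TFDP1 inside it. Within 500 kb of a member lay 2 to 9 LV-HOXA5 peaks with a median of 3, and the median over all protein-coding genes was also 3. E2F2 had the most with 9, followed by E2F5 with 5. Of those of E2F5, the peaks at 429 and 434 kb each overlapped an LV-HOXA5-NC peak.

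**Figure D3:**
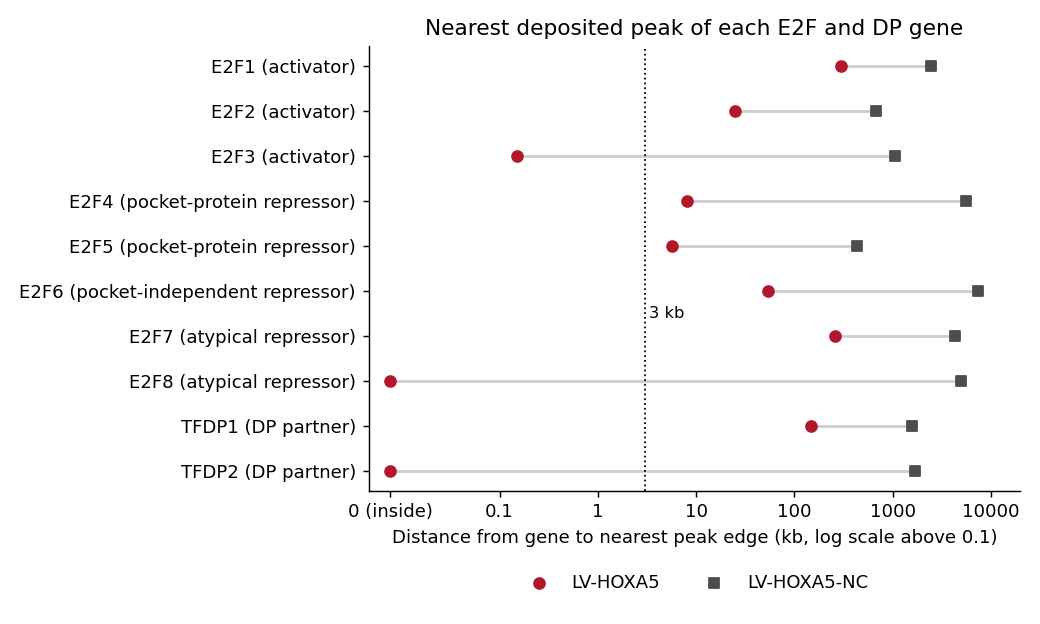
Distance in kb (log scale above 0.1, with 0 for a peak inside the gene) from each E2F and DP gene to the edge of the nearest LV-HOXA5 peak (red circles) and LV-HOXA5-NC peak (grey squares), with the 3 kb limit dotted. E2F3, E2F8 and TFDP2 lie left of the limit in LV-HOXA5, and every grey square lies right of 100 kb.

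In the LV-HOXA5-NC list, none of the 10 genes had a peak, and the background was 130 of 20037 protein-coding genes (0.649%), so that none is close to what the list as a whole gives. The nearest control peak lay between 429 kb (E2F5) and 7.42 Mb (E2F6) away, with a median of 2.07 Mb for the members and 4.43 Mb for all protein-coding genes. E2F5 was the only member with control peaks within 500 kb, 3 in number, of which the nearest (chromosome 8, 85643199 to 85643628, pileup 20 fragments) overlapped an LV-HOXA5 peak.

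The absence of control peaks at E2F3, E2F8 and TFDP2 is not a measured difference between the conditions. Scaled to the fragments of the LV-HOXA5-NC library, the pileup of 19 at E2F3 corresponds to 2.35 fragments, while 5 would have been needed there for the lowest −log10 p-value of the control list. For E2F8 the scaled pileup is 1.61 fragments and for TFDP2 1.48, against 4 needed at each. On these expected values, a region of the same density would fall short of a call at this depth at each of these genes. Counting error around the expected values was not included. The E2F3 peak, 260 bp long, was also shorter than the 283 bp that a control peak needed to have.

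The genes that work with the E2F proteins were counted in the same way, in lists that were drawn up by role. Of 62 such genes, 18 (29.0%) had an LV-HOXA5 peak, beside 20.7% of all protein-coding genes. The lists differed. Among the pocket proteins, RBL2 and RBL1 had a peak and RB1 had none. The peak of RBL2 lay 24 bp from its start at 18 fragments and 6.10-fold enrichment, whereas that of RBL1 was 26202 bp from a start, with 11 fragments and a 4.66-fold enrichment. The MuvB core forms the DREAM repressor with E2F4 or E2F5 and a pocket protein, and later works with MYBL2 and FOXM1. Of the 7 genes in this list, only LIN52 had a peak, 60 bp from its start at 37 fragments and 7.51-fold enrichment. Of the 12 genes of the polycomb complex around E2F6, only CBX3 had one, at 28 fragments and 6.15-fold enrichment.

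Of the 16 G1 cyclins, kinases and inhibitors that act upstream of RB1 and the E2Fs, 4 had a peak, and the D and E cyclins CCND1, CCND2, CCND3, CCNE1 and CCNE2 had none. CDK2 had the highest fold of the group, 8.88 with a pileup of 59 fragments, at 803 bp from the gene. RefSeq gave no start for CDK2, so which end of the gene this peak lies by was not read. Whether it lies at a neighbouring gene was not examined. CDK6 followed with 7 peaks, of which the strongest had a 4.96-fold enrichment and lay inside the gene. CDKN2C, an inhibitor of CDK4 and CDK6, had a peak of 4.21-fold enrichment at 194 bp from its start. CDK4 had one of 3.96-fold enrichment at 2462 bp from the gene and 7045 bp from its start.

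Among 24 cell cycle genes that E2F proteins are known to control, most of them for DNA replication, 10 had an LV-HOXA5 peak (41.7%). In 9 of them RefSeq gave a start, and in all 9 the strongest peak lay within 1 kb of it and in 7 over it. The same count was not made over all protein-coding genes with a peak. Whether such positions are particular to this list is therefore not known. PCNA, the sliding clamp of DNA polymerases, had a peak of 7.38-fold enrichment, followed by CDC45 of the replicative helicase at 5.43-fold and TK1, a thymidine kinase, at 4.84-fold. Fold enrichments of the 10 genes had a median of 4.42, and the 4.56 of E2F8 lay close to that median. The lists were made with earlier results of these data known and no test was made of their shares.

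**Figure D4:**
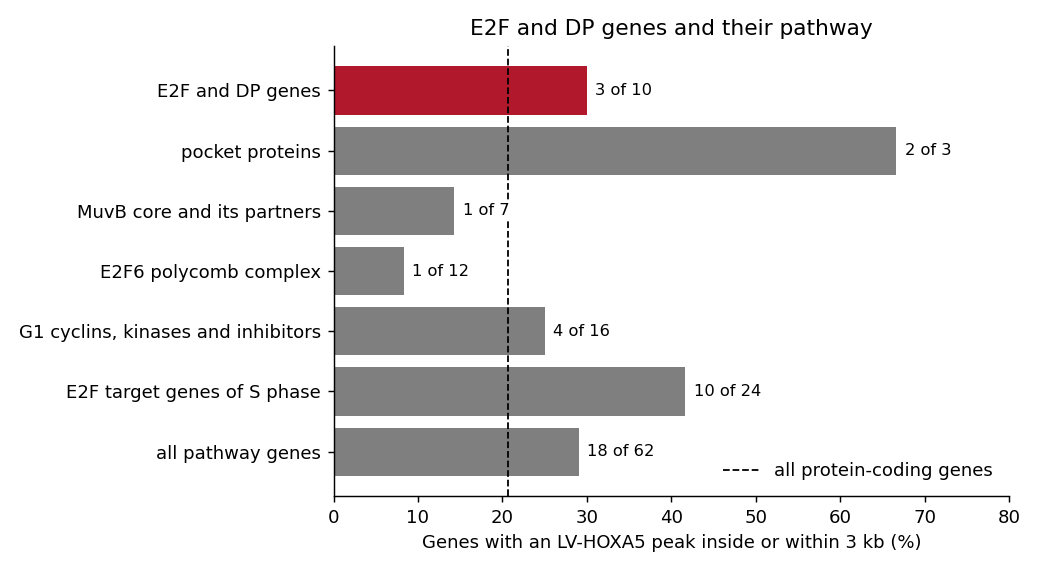
Share of genes (%) with an LV-HOXA5 peak by the 3 kb rule for the E2F and DP genes (red bar) and for lists of genes that work with them (grey bars), with the number of genes beside each bar and the share of all protein-coding genes as a dashed line at 20.7%. The members reach 3 of 10 and the E2F target genes 10 of 24, while the MuvB and polycomb lists lie left of the line with 1 of 7 and 1 of 12.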

How the data were processed

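Per the submitters' processing notes, reads were handled with fastp, Bowtie2, deepTools, MACS2 and ChIPseeker on GRCh38. Per the file headers, the authors removed duplicates and called peaks in each library on its own with MACS 2.2.7.1 (paired-end fragments, q-value 0.05, effective genome size 2.7e+09, no control library). The deposited pileup signal is in fragments and not scaled for depth. The deposited fold enrichment is a ratio of pileup to background within 1 library. The deposited −log10 p-value and −log10 q-value come from the same comparison. The second deposited form of each list held the same 8043 and 635 peaks.

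The local background was recovered as (pileup + 1) / fold − 1, after which the Poisson −log10 p-value lay within 0.01 of the deposited one for 8017 and 630 peaks. Distances ran from the edge of a peak to the gene, with genes and promoters of RefSeq (GRCh38.p14). The assignment was tested on simulated data. Samples were grouped by the treatment label. With 1 library per condition no test was made, and intervals cover counting error only. All members and their peaks are named, and of each list up to 4 genes by highest fold enrichment, of which 1 is not reported here. The members, lists and alternatives were chosen with earlier results of these data known. Other limits of distance, q-value, fold, summit and assignment were tried. Python 3.11.15, NumPy 2.4.6, SciPy 1.17.1, pandas 2.3.3 and Matplotlib 3.10.9 were used. The other experiments of the study were not analysed here.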

Additional observations from a re-analysis of the deposited data

How the results depend on the processing

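Of 28 comparisons with an alternative setting, 20 stayed within 1.5 times the reported number or, for ranks, within its 95% interval, and 8 did not. Within 10 kb of an end, 5 of the 10 members had an LV-HOXA5 peak, as E2F4 and E2F5 were added, beside 4953 of 20037 protein-coding genes (24.7%). Within 3 kb of a start only 1 of 8 members had one, as E2F5 and E2F8 were not matched to a start and the peak of TFDP2 lies far from its starts. For all protein-coding genes the start rule left 2424. Keeping peaks whose fold was at least the median left 9 of the 62 pathway genes and 2252 protein-coding genes, since fewer peaks were counted, and of the members it left E2F3 and TFDP2 but not E2F8. The median standing of the members' peaks in the list, above 55.0% by fold enrichment, was 35.4% by −log10 q-value and 22.1% by pileup, and the cause was not tested. The median distance to the nearest peak, 16.5 kb, was 61.7 kb from the gene start only, over 8 members. The number of members with a control peak was 0 under each of the 3 alternatives tried for it. No paired analysis was possible because each condition has 1 library. The depth of the control library, 12.4% of the other, limits every statement on the control.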

Other observations

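RefSeq lists 13 further genes whose symbols begin with an E2F or TFDP name, among them TFDP3, 10 pseudogenes and the 2 long non-coding RNA genes E2F3-IT1 and E2F5-DT. None of the 13 had an LV-HOXA5 peak inside or within 3 kb of an end. The closest was the pseudogene E2F6P2 at 25.2 kb, and for TFDP3, a DP protein known mainly from testis and tumours, the nearest peak lay 1410 kb away.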
